A study of Mus musculus with 8 samples.

Results

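The common gamma chain, encoded by Il2rg, is a receptor subunit shared by several cytokines of lymphocytes. The genes described here are its branch of cytokine signalling together with SOCS family inhibitors, followed in mouse thymocytes that express a gain-of-function STING or lack its activating recombinase. There are 10 of them among the 55359 gene IDs listed: the receptor chains Il7r, Il2rg, Il4ra and Il21r, the kinase Jak3, the transcription factors Stat5a and Stat5b, and the inhibitors Socs1, Socs3 and Cish. They were chosen by symbol, and each symbol was found in all 8 samples.

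RNA sequencing was done on thymocytes sorted as CD4 and CD8 double positive (DP) with absent to intermediate TCR beta, from mice of 5 weeks. The 4 Lck-cre samples (replicates 5 to 8) had the genotype LSL-Sting1-N153S;Lck-cre, and the 4 control samples (replicates 1 to 4) had LSL-Sting1-N153S/+. Both groups therefore carried the N153S allele of Sting1 behind a loxP-flanked stop, and Cre, expressed from the Lck promoter and so from early thymocyte stages on, was present in Lck-cre alone. Replicate 5 of Lck-cre and replicate 1 of the controls were female, and the other 3 of each group were male. Among these samples there is none with Lck-cre and a wild-type Sting1, so the presence of Cre and the expression of the mutant cannot be told apart. The labels do not state that samples came from separate animals, and p-values cover only the spread among these samples, which may be technical.

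In this pathway a cytokine brings its own receptor chain together with the gamma chain. Jak1, held by the cytokine-specific chain, and Jak3, held by the gamma chain, then phosphorylate STAT proteins, which enter the nucleus. SOCS proteins and Cish are made in response and bind the receptor or the kinase to end the signal. In the thymus, interleukin 7 signals are known to sustain double negative cells, Il7r is known to be switched off at the DP stage and on again in selected cells, and Socs1 is known as the inhibitor that keeps DP cells unresponsive to cytokines.

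Values are FPKM, in which fragments per gene are divided by its length and by the library's size, so levels can be set side by side between genes. Read counts are not in the files, and depth is unknown. Summed over genes, Lck-cre samples held 437778 to 457145 FPKM and control samples 413835 to 437426 FPKM. Sting1 had 221, 85.4, 130 and 232 FPKM in Lck-cre replicates 5 to 8, against 15.3, 11.6, 13.4 and 11.9 FPKM in control replicates 1 to 4, with no overlap between groups. The DP markers Cd4, Cd8a, Cd8b1, Rag1, Rag2, Ptcra, Dntt, Arpp21 and Cd3e were all detected, with a summed level of 4079 to 5305 FPKM in Lck-cre and 5322 to 5690 FPKM in the controls. Of these 9 markers Ptcra rose, and Cd4, Rag1 and Rag2 fell. Their part in the results on the members was not tested, and in RNA of a sorted population fewer cells of a type and less RNA per cell cannot be told apart.

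In Lck-cre thymocytes the receptor chains Il4ra and Il21r fell to 0.677 and 0.743 of the control mean, and Jak3 rose to 1.32 times it, while Il2rg, Stat5a, Stat5b, Socs1 and Socs3 did not pass the test. Il7r and Cish lay below 1 FPKM in every sample and were not tested. Of the 8 members tested by limma, 1 rose and 2 fell at an adjusted p under 0.05. Of all 12337 genes tested, 25.8% were called, 15.4% higher and 10.4% lower in Lck-cre, so 3 of 8 is a count near that share. The median log2 change was -0.24 over the 8 tested members and 0.01 over all tested genes. At an unadjusted p under 0.05, 6 of the 8 passed, beside 41.4% of all tested genes.

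**Figure D1:**
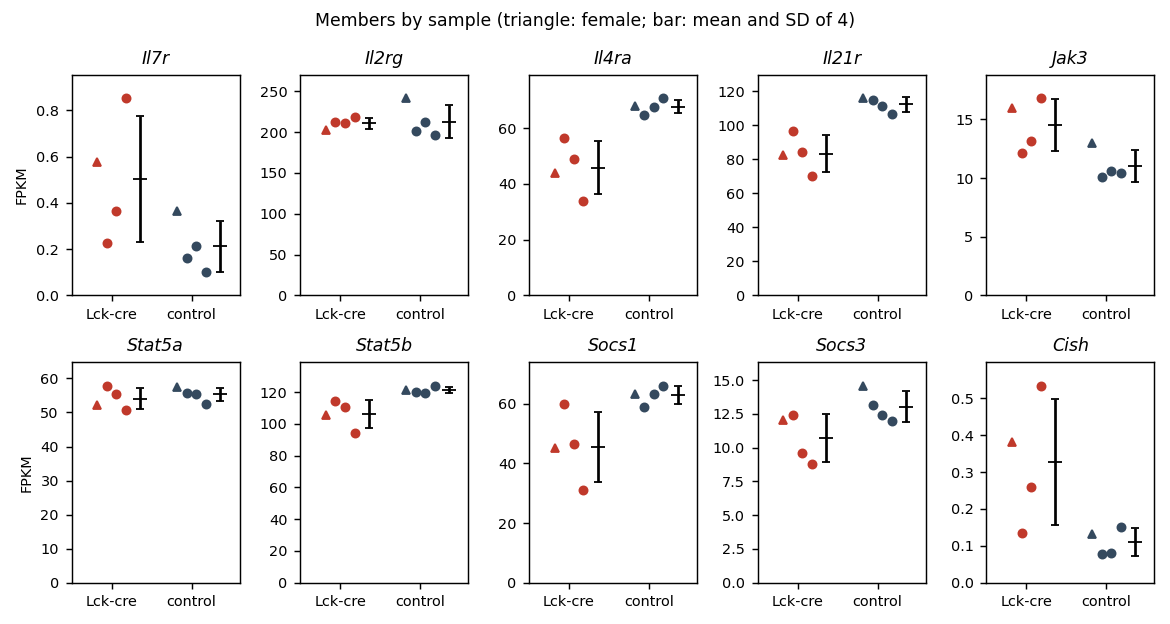
FPKM of each of the 10 genes in every sample, Lck-cre (red) left of control (dark), triangles for females and circles for males, with the mean and SD of 4 samples as a bar. Il4ra, Il21r and Stat5b show no overlap between the groups, as do 29.4% of all tested genes, and Il7r and Cish stay below 1 FPKM throughout.

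The members spanned a wide range of levels in DP cells. In Lck-cre, Il2rg had the highest mean, 211 FPKM, followed by Stat5b at 106, Il21r at 83.3, Stat5a at 54.1, Il4ra at 45.8, Socs1 at 45.6, Jak3 at 14.5, Socs3 at 10.7, Il7r at 0.504 and Cish at 0.327 FPKM. In the controls the means were 213 FPKM for Il2rg, 121 for Stat5b, 112 for Il21r, 67.7 for Il4ra, 62.8 for Socs1, 55.3 for Stat5a, 13.0 for Socs3, 11.0 for Jak3, 0.212 for Il7r and 0.111 for Cish. Stat5a thus stood above Il4ra and Socs1 in Lck-cre and below both in the controls, and Jak3 stood above Socs3 in Lck-cre and below it in the controls. Ranges of neighbours in this order overlapped in Lck-cre for Stat5b and Il21r, Stat5a and Il4ra, Il4ra and Socs1, Jak3 and Socs3, and Il7r and Cish. In the controls they overlapped for Il4ra and Socs1, Socs3 and Jak3, and Il7r and Cish. In both groups the gamma chain was thus at the top of the order, and Il7r and Cish were at the bottom with overlapping ranges.

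Il4ra, the chain that binds interleukin 4 and also serves interleukin 13, had 43.9, 56.5, 48.9 and 33.8 FPKM in Lck-cre replicates 5 to 8, against 67.9, 64.7, 67.5 and 70.7 FPKM in control replicates 1 to 4. Every Lck-cre sample was below every control, as in 12.3% of all tested genes, and Lck-cre replicate 8 was the lowest. Its mean was 45.8 ± 9.53 FPKM in Lck-cre and 67.7 ± 2.46 FPKM in the controls (SD, n = 4 each), with a log2 change of -0.58 (SE 0.14, 95% confidence interval -0.89 to -0.28) and an adjusted p of 0.0178 from limma. Exact permutation of the group means, two-sided, gave p = 0.0286, and no smaller value is possible with 4 samples a group.

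Il21r, the receptor of interleukin 21, a product of helper T cells, had 82.7, 96.5, 84.0 and 70.2 FPKM in Lck-cre replicates 5 to 8, against 116, 115, 111 and 106 FPKM in control replicates 1 to 4. Again the groups did not overlap and Lck-cre replicate 8 was lowest. The mean was 83.3 ± 10.7 FPKM in Lck-cre and 112 ± 4.27 FPKM in the controls, a log2 change of -0.43 (SE 0.09, 95% confidence interval -0.64 to -0.22) at an adjusted p of 0.0140 from limma. Il21r and Il4ra are neighbours on chromosome 7, on the plus strand, listed at 125202601 to 125232742 and at 125151292 to 125178646, with 23954 bases between them. The files name no genome build for these positions. Per sample, the ratio of Il4ra to Il21r was 0.545 ± 0.0495 in Lck-cre and 0.605 ± 0.0433 in the controls, with overlapping ranges (exact two-sided permutation p = 0.114).

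The shared gamma chain behaved otherwise. Il2rg, on the X chromosome, had 202, 212, 212 and 218 FPKM in Lck-cre replicates 5 to 8, against 241.5, 201, 213 and 196 FPKM in control replicates 1 to 4. All Lck-cre values lay inside the control range, whose top value was that of the control female. Its log2 change of -0.01 (SE 0.08) had a 95% confidence interval of -0.18 to 0.16 and an adjusted p of 0.945 in limma. The ratio of a chain to Il2rg within a sample does not depend on how libraries are scaled. Il4ra stood at 0.218 ± 0.0467 of Il2rg in Lck-cre and 0.320 ± 0.0325 in the controls, and Il21r at 0.396 ± 0.0554 of it in Lck-cre and 0.530 ± 0.0389 in the controls, with no overlap in either case (exact two-sided permutation p = 0.0286 each, 0.0477 adjusted over 5 ratios). The exact p of both ratios was 0.0571 when Lck-cre replicate 8 was left out, and likewise for control replicate 2, 3 or 4. The ratios were chosen after the values were seen.

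Il7r, the chain for interleukin 7 and, with Crlf2, for TSLP, had 0.575, 0.226, 0.363 and 0.852 FPKM in Lck-cre replicates 5 to 8, against 0.365, 0.164, 0.215 and 0.103 FPKM in control replicates 1 to 4. The groups overlapped through Lck-cre replicates 6 and 7, and control replicate 1, a female, was the highest control. The mean was 0.504 ± 0.273 FPKM in Lck-cre and 0.212 ± 0.112 FPKM in the controls, a ratio of 2.38 (exact two-sided permutation p = 0.0857). Coverage per base lay between 1.22 and 4.69 in Lck-cre samples, and between 0.522 and 1.83 in control samples, so few reads lie behind each value.

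Since Il7r is known to be high in double negative and mature thymocytes, the markers of those cells stand beside it. The 6 double negative markers summed to 23.2 to 40.0 FPKM in Lck-cre and 19.5 to 26.4 FPKM in the controls, and of 4 tested 1 rose, Dtx1. The 6 markers of mature single positive cells summed to 81.9 to 99.7 FPKM in Lck-cre and 80.2 to 92.5 FPKM in the controls, and of 4 tested 2 rose, Klf2 and Itgb7. The 7 markers of gamma-delta T, NK and innate lymphoid cells summed to 0.493 to 2.06 FPKM in Lck-cre and 0.362 to 0.434 FPKM in the controls, with Ncr1 listed at 0 in all samples. None of the 7 passed the filter. Nkg7 had 0.574 ± 0.357 FPKM in Lck-cre and 0.0485 ± 0.0335 FPKM in the controls, without overlap. Sox13 had 0.636 ± 0.330 FPKM in Lck-cre and 0.275 ± 0.0180 FPKM in the controls, with overlap. Il2rb and Klrb1c had lower means in Lck-cre. The part of these marker lists in the level of Il7r was not tested.

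Downstream of the receptors, Jak3, the kinase that rests on the gamma chain, had 15.99, 12.1, 13.2 and 16.8 FPKM in Lck-cre replicates 5 to 8, against 13.0, 10.1, 10.6 and 10.4 FPKM in control replicates 1 to 4. The groups overlapped because Lck-cre replicate 6, a male, lay below the control female, whereas the Lck-cre males all lay above the control males and the Lck-cre female above the control female. The mean was 14.5 ± 2.22 FPKM in Lck-cre and 11.0 ± 1.32 FPKM in the controls, and limma, with sex in the fit, gave a log2 change of 0.38 (SE 0.10, 95% confidence interval 0.15 to 0.60) at an adjusted p of 0.0252. For Jak3, exact permutation of the group means, two-sided and without regard to sex, gave p = 0.0571. Jak3 lies on chromosome 8 at 72128940 to 72143219.

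Stat5b, which with Stat5a carries the signals of interleukins 2 and 7, had 105, 115, 110 and 94.4 FPKM in Lck-cre replicates 5 to 8, against 121, 120, 120 and 124 FPKM in control replicates 1 to 4. The groups did not overlap, as in 29.4% of all tested genes, with 12.3% lower throughout in Lck-cre. The control values lay within a narrow band (121.3 ± 2.004 FPKM) and the Lck-cre values spread more widely (106 ± 8.72 FPKM). With a log2 change of -0.19 (SE 0.07), a 95% confidence interval of -0.36 to -0.03 and an adjusted p of 0.0704 from limma, it missed the threshold. Stat5a had 52.3, 57.9, 55.3 and 50.8 FPKM in Lck-cre and 57.4, 55.9, 55.3 and 52.6 FPKM in the controls, with overlapping groups and a log2 change of -0.03 (95% confidence interval -0.18 to 0.11).

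The STAT5 genes lie next to each other on chromosome 11, 8626 bases apart as listed. Stat5b was 1.96 ± 0.0712 times Stat5a in Lck-cre and 2.20 ± 0.112 times in the controls, without overlap (exact two-sided permutation p = 0.0286, 0.0477 adjusted over the 5 ratios). Without Lck-cre replicate 8 the exact p of that ratio was 0.0571. This ratio too was chosen after the values were seen, and 0.0286 is the smallest p possible with 4 samples a group. Reads from stretches the STAT5 genes share could be split between them by the counting, whose rules no label states.

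Among the inhibitors, Socs1, which blocks JAK kinases directly, had 45.1, 59.8, 46.4 and 31.1 FPKM in Lck-cre replicates 5 to 8, against 63.1, 58.9, 63.3 and 66.1 FPKM in control replicates 1 to 4. Only Lck-cre replicate 6 reached the control range, just above control replicate 2. The mean was 45.6 ± 11.7 FPKM in Lck-cre and 62.8 ± 2.96 FPKM in the controls, with a log2 change of -0.49 (SE 0.17) whose 95% confidence interval was -0.87 to -0.12. The adjusted p was 0.0547 by limma, and the call was made with TPM values (0.0333), with quantile normalization (0.0397), with no sex term (0.0423) and without Lck-cre replicate 6 (0.00838). Socs1 lies on chromosome 16 at 10600104 to 10603400.

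Socs3, which acts on receptors of the interleukin 6 type, had 12.05, 12.4, 9.64 and 8.76 FPKM in Lck-cre replicates 5 to 8, against 14.6, 13.15, 12.4 and 11.99 FPKM in control replicates 1 to 4. Replicates 7 and 8 of Lck-cre were below every control, and replicates 5 and 6 were not. The log2 change was -0.28 (SE 0.10, adjusted p = 0.0710 by limma), and the call was made with TPM values (0.0389) and without Lck-cre replicate 6 (0.00910). Socs1 was 4.23 ± 0.677 times Socs3 in Lck-cre and 4.85 ± 0.549 times in the controls, with overlap (exact two-sided permutation p = 0.229).

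Cish, an inhibitor that STAT5 itself is known to induce, had 0.381, 0.134, 0.259 and 0.534 FPKM in Lck-cre replicates 5 to 8, against 0.133, 0.0783, 0.0795 and 0.152 FPKM in control replicates 1 to 4. Lck-cre replicates 5, 7 and 8 were above every control, and replicate 6 was between the controls. The mean was 0.327 ± 0.171 FPKM in Lck-cre and 0.111 ± 0.0376 FPKM in the controls, a ratio of 2.96 (exact two-sided permutation p = 0.0571). That p was 0.0286 without Lck-cre replicate 6, and Cish did not pass in the other 9 settings. With males only it could not pass, because no exact p below 0.1 is possible with 3 samples a group. Lck-cre samples covered it 0.608 to 2.21 times per base, and control samples 0.389 to 0.668 times. With no filter on low values, limma gave adjusted p = 0.147 for Cish and 0.204 for Il7r.

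**Figure D2:**
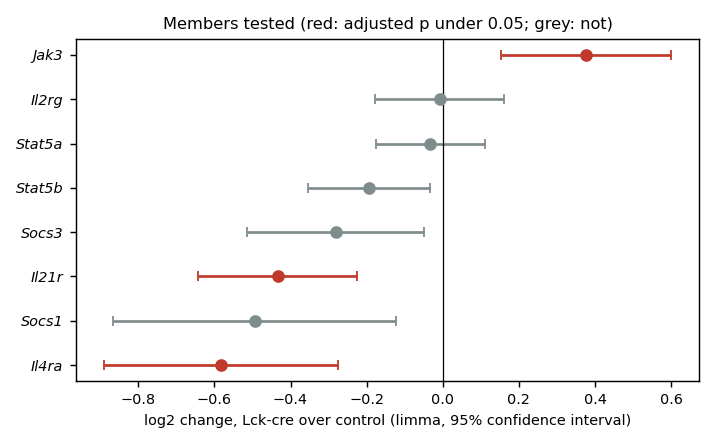
Log2 change of Lck-cre over control with its 95% confidence interval (limma) for the 8 members tested, red where the adjusted p was under 0.05 and grey otherwise. Il4ra, at -0.58, and Il21r, at -0.43, lie left of 0 and Jak3, at 0.38, right of it. The intervals of Socs1, Socs3 and Stat5b also leave out 0, without adjustment for the number of genes tested.

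STAT dimers are known to bind the palindrome TTCNNNGAA, which reads the same on either strand. RefSeq promoters, from 250 bases before to 50 bases after each start (build GRCm38.p6), were found for all 10 members, in 12 windows. Windows of 3 members held the motif: 2 copies in Cish, 1 in Socs3 and 1 in Il7r. Of all 32851 promoters of that length 8.30% held at least 1 copy, and 0.457% held 2 or more. The same end letters with 4 bases between them, the form STAT6 prefers, were in no member's window and in 6.95% of all promoters. The windows with the motif, shown because they include both members below 1 FPKM, read 5′ to 3′ on the gene's strand with the motif in capitals. They are Cish at chr9:107296409-107296708 (plus strand), Il7r at chr15:9529827-9530126 (minus strand) and Socs3 at chr11:117969317-117969616 (minus strand).
Cish: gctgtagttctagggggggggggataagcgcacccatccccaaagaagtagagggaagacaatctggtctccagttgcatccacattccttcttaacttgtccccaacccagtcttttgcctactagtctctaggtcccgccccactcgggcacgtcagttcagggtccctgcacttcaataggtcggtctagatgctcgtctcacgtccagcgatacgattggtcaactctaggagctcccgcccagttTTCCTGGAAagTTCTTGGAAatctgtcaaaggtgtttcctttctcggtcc
Il7r: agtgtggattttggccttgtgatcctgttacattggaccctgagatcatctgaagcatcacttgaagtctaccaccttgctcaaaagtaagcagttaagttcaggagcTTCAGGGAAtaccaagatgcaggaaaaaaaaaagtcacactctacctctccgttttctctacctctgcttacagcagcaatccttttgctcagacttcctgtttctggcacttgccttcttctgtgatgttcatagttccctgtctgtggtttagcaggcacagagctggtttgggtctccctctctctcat
Socs3: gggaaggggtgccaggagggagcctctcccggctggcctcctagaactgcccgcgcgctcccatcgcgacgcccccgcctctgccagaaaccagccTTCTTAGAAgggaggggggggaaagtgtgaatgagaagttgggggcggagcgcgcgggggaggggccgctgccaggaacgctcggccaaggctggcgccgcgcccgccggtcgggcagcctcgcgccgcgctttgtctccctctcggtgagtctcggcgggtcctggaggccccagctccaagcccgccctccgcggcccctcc
In Cish the copies begin at bases 1 and 12 after the annotated start and do not overlap. In Il7r the copy begins 142 bases before the start, and in Socs3 154 bases before it. A match describes the letters only, and binding was not measured.

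The Lck-cre samples differed among themselves in the same order for most members. From replicate 8 through 5 and 7 to 6, the values of Il7r, Jak3 and Cish went down step by step, and those of Il4ra, Il21r, Stat5a, Stat5b and Socs1 went up. Il2rg and Socs3 did not keep to this order. Of the 8 tested members 6 kept to it in 1 direction or the other, against 17.7% of all tested genes and 24.7% of the genes called. Sting1 was ordered in the same way, from 232 FPKM in replicate 8 to 85.4 FPKM in replicate 6. The order was read from these values, and members that vary together are not separate instances of it. Replicate 8 had 0.4995 of the control mean for Il4ra, 0.495 for Socs1 and 0.626 for Il21r, while replicate 6 had 0.835, 0.952 and 0.861 of it.

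**Figure D3:**
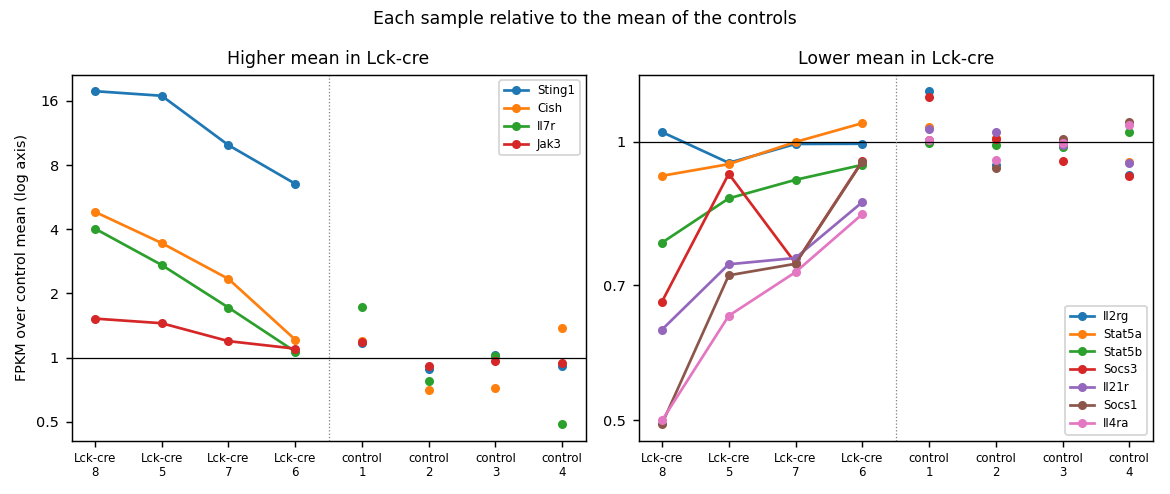
FPKM of each sample divided by the mean of the 4 controls, on a log axis, with the Lck-cre replicates in the order 8, 5, 7, 6 left of the controls. The left panel has Sting1 and the members with a higher mean in Lck-cre and the right panel those with a lower mean. Il7r, Cish, Jak3 and Sting1 step down from replicate 8 to 6, and Il4ra, Il21r, Socs1, Stat5a and Stat5b step up.

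The genes whose levels followed those of the called members with the largest changes were listed as a description. Over the 8 samples, Il4ra was followed most closely by Igsf23 (Pearson r 0.994 of log2 values), by Stat5b (0.993) and by Borcs8 (0.992). Il21r was followed by Ppp1r3b, a glycogen-targeting subunit of a phosphatase (0.998), by Ets2, an ETS family transcription factor (0.997), and by Eya2 (0.996). Each of these genes was lower on average in Lck-cre, with log2 changes of -0.99 for Igsf23, -0.31 for Borcs8, -0.59 for Ppp1r3b, -0.55 for Ets2 and -0.61 for Eya2. These correlations span both groups and so contain the difference between them.

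Other genes of the pathway were followed in 9 lists with 73 genes, 58 of which were tested. Of these 7 rose and 8 fell, 25.9% of the 58, close to the share of all genes.

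Among chains that pair with the gamma chain or with Il7r, 1 of 4 tested rose and 0 fell by limma. The 1 was Il9r, the receptor of interleukin 9, with 6.14, 3.04, 4.74 and 8.34 FPKM in Lck-cre replicates 5 to 8, against 2.15, 1.79, 2.70 and 1.93 FPKM in control replicates 1 to 4. The groups did not overlap, and the log2 change was 1.13 (SE 0.25, adjusted p = 0.0153 by limma). Il2ra, the alpha chain for interleukin 2 and a double negative marker, had 3.68 ± 1.28 FPKM in Lck-cre and 2.16 ± 0.8287 FPKM in the controls (adjusted p = 0.0734). Crlf2 had 14.5 ± 0.715 FPKM in Lck-cre and 13.1 ± 1.97 FPKM in the controls. Il2rb, the beta chain for interleukins 2 and 15, had 0.0379 ± 0.0183 FPKM in Lck-cre and 0.0713 ± 0.0414 FPKM in the controls and was not tested. No gene of the cytokine list was tested: Il2, Il9 and Il21 were listed at 0 in all samples, and the 7 cytokine genes summed to 0.306 to 0.467 FPKM in Lck-cre and 0.447 to 0.515 FPKM in the controls. Most of each sum was Il4 and Tslp, whose product signals through Il7r and Crlf2. Tslp had 0.183 ± 0.0489 FPKM in Lck-cre and 0.286 ± 0.0391 FPKM in the controls. Il4 had 0.2093 ± 0.0397 FPKM in Lck-cre and 0.2092 ± 0.0421 FPKM in the controls.

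Of the other JAK and STAT genes, 0 rose and 2 of 8 fell by limma, with 6 at an unadjusted p under 0.05, a threshold that 41.4% of all tested genes passed. Jak1, the partner kinase of Jak3, had 81.8, 79.9, 82.4 and 66.8 FPKM in Lck-cre, against 98.8, 97.8, 87.7 and 91.2 FPKM in the controls, without overlap (log2 change -0.27, SE 0.08, adjusted p = 0.0326). Jak1 and Jak3 therefore changed in opposite directions. Stat6, the STAT of interleukin 4, had 58.7 ± 4.37 FPKM in Lck-cre and 71.3 ± 5.74 FPKM in the controls, with overlap (log2 change -0.28, SE 0.08, adjusted p = 0.0356). Stat3, used by interleukin 21, had 43.7 ± 1.94 FPKM in Lck-cre and 44.0 ± 1.10 FPKM in the controls.

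Of the other SOCS genes, 0 of 4 tested passed limma, and 0 had an unadjusted p under 0.05, beside 41.4% of all tested genes. Socs6 had the smallest p, with 7.79 ± 1.45 FPKM in Lck-cre and 9.15 ± 0.492 FPKM in the controls (adjusted p = 0.177). Socs2, also a STAT5 target, lay below the filter at 0.0996 ± 0.0911 FPKM in Lck-cre and 0.0149 ± 0.0173 FPKM in the controls. Of 10 other inhibitors of JAK and STAT signalling 1 rose and 1 fell. Ptpn2, a phosphatase of JAK and STAT proteins, had 17.6, 16.7, 18.1 and 19.9 FPKM in Lck-cre, against 14.8, 15.1, 14.9 and 15.0 FPKM in the controls (log2 change 0.26, SE 0.07, adjusted p = 0.0247, and 0.0736 with TPM values). Ptprc, the phosphatase CD45, had 282 ± 25.05 FPKM in Lck-cre and 350 ± 27.5 FPKM in the controls (log2 change -0.31, SE 0.09, adjusted p = 0.0342).

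Of genes known to answer STAT5 in lymphocytes, 2 of 10 tested rose and 1 fell by limma. At an unadjusted p under 0.05, 5 of the 10 passed, beside 41.4% of all tested genes. Myc rose to 24.0 ± 6.82 FPKM in Lck-cre, against 13.2 ± 1.04 FPKM in the controls (log2 change 0.80, SE 0.17), and Pim1, a survival kinase, to 113 ± 21.1 FPKM in Lck-cre, against 78.1 ± 6.01 FPKM in the controls (log2 change 0.51, SE 0.12). Bcl6, a repressor that STAT5 is known to lower, fell to 54.6 ± 8.205 FPKM in Lck-cre, against 76.2 ± 4.28 FPKM in the controls (log2 change -0.49, SE 0.10). The survival genes Bcl2, Bcl2l1 and Mcl1 were not called, with log2 changes of -0.09, -0.09 and -0.16. The groups overlapped for Bcl2 and Bcl2l1. For Mcl1 they did not, with 129 ± 10.4 FPKM in Lck-cre and 144 ± 4.52 FPKM in the controls. Ccnd2, cyclin D2, lay below the filter with 1.30, 0.342, 0.740 and 1.66 FPKM in Lck-cre replicates 5 to 8, against 0.227, 0.124, 0.144 and 0.177 FPKM in the controls, again with replicate 8 highest and replicate 6 lowest.

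Of genes known to respond to interleukin 4 and STAT6, 0 rose and 2 of 5 tested fell by limma, with 3 at an unadjusted p under 0.05, beside the same 41.4% of all tested genes. Ccr4, a chemokine receptor, had 4.17, 7.99, 5.62 and 2.57 FPKM in Lck-cre replicates 5 to 8, against 13.7, 12.1, 11.9 and 9.86 FPKM in control replicates 1 to 4 (log2 change -1.24, SE 0.27, adjusted p = 0.0149). Xbp1, a transcription factor of the secretory pathway, had 63.8 ± 4.75 FPKM in Lck-cre and 79.5 ± 4.91 FPKM in the controls (log2 change -0.32, SE 0.07, adjusted p = 0.0132). Gata3 and Irs2 were not called, with log2 changes of -0.14 and -0.34.

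Of known regulators of Il7r transcription 2 of 10 tested rose and 0 fell by limma, with 3 at an unadjusted p under 0.05, beside 41.4% of all tested genes. Runx3 had 8.09 ± 2.04 FPKM in Lck-cre and 4.45 ± 0.512 FPKM in the controls (log2 change 0.77, SE 0.17), and Klf2 had 8.70 ± 2.59 FPKM in Lck-cre and 4.41 ± 1.63 FPKM in the controls, with overlap (log2 change 0.92, SE 0.25). Foxo1, an activator of Il7r, had 5.03 ± 0.587 FPKM in Lck-cre and 5.79 ± 0.425 FPKM in the controls. Gfi1, a repressor of it, had 59.4 ± 3.06 FPKM in Lck-cre and 59.6 ± 2.80 FPKM in the controls. Of the phosphoinositide 3-kinase arm 1 of 8 tested rose and 2 fell. Pik3cd, the catalytic delta subunit, had 35.7 ± 4.13 FPKM in Lck-cre and 28.8 ± 1.68 FPKM in the controls (log2 change 0.30, adjusted p = 0.0235, and 0.0669 with TPM values). Pik3r1, its regulatory subunit, had 29.4 ± 1.003 FPKM in Lck-cre and 35.2 ± 0.705 FPKM in the controls (log2 change -0.26, adjusted p = 0.0140), and Tsc1, an inhibitor of mTOR signalling, 8.57 ± 0.581 FPKM in Lck-cre and 10.2 ± 0.579 FPKM in the controls (log2 change -0.23, adjusted p = 0.0470).

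**Figure D4:**
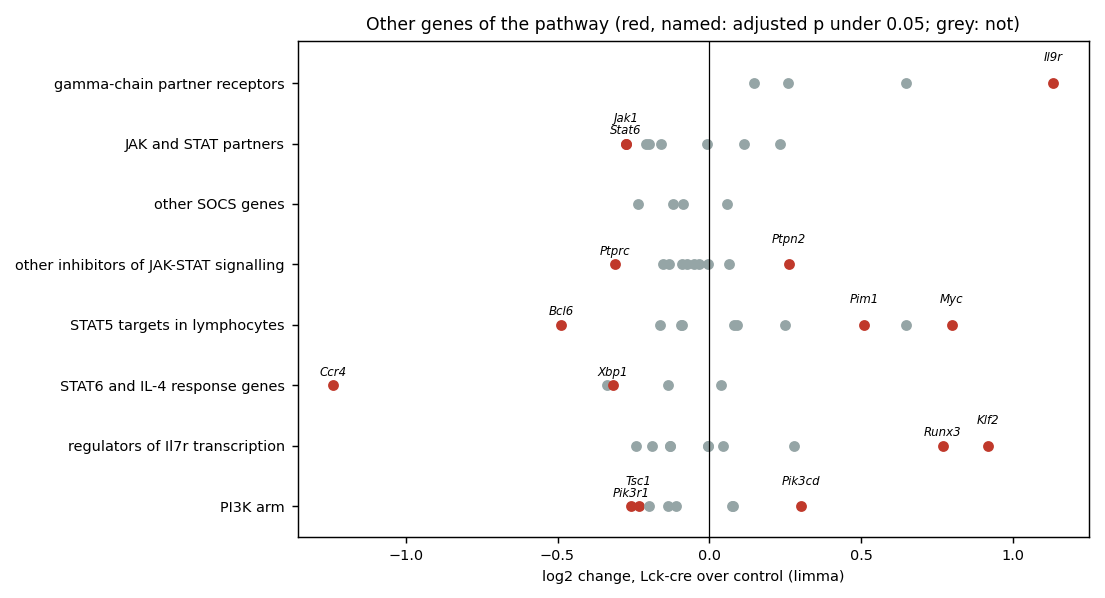
Log2 change of Lck-cre over control (limma) for each tested gene of the 8 lists with tested genes, red and named where the adjusted p was under 0.05 and grey otherwise. Il9r, Klf2, Myc and Runx3 lie farthest right and Ccr4 farthest left, while the SOCS genes outside the members are all grey.

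Il4ra and Il21r stayed below an adjusted p of 0.05 when any 1 of the 6 males was left out, at 0.00445 to 0.0482 for Il4ra and 0.00302 to 0.0480 for Il21r. With males alone, the adjusted p was 0.0707 for Il4ra, 0.0616 for Il21r and 0.0723 for Jak3, and of all 18 called genes named from the members and lists Pik3r1 alone passed (0.0495). Leaving out 1 of the females, control replicate 1 or Lck-cre replicate 5, is nearly the same fit, since the sex term then absorbs the other female, and the log2 changes of Il4ra, Il21r and Jak3 were those of the males (-0.57, -0.42 and 0.41). Jak3 also missed without control replicate 2 (0.0755), control replicate 4 (0.0575) or Lck-cre replicate 7 (0.05002), and of the list genes Il9r, Jak1, Stat6, Ptpn2, Ptprc, Pim1, Klf2, Pik3cd and Tsc1 missed without control replicate 2 (0.0503 to 0.134). Without Lck-cre replicate 8, Jak1, Stat6, Ptpn2, Ptprc, Klf2 and Tsc1 missed (0.0562 to 0.101), and without Lck-cre replicate 7 Stat6, Ptpn2, Ptprc and Tsc1 (0.0610 to 0.0994). Without control replicate 4, Jak1, Stat6, Ptpn2, Ptprc and Tsc1 missed (0.0565 to 0.0919), without control replicate 3 Klf2 (0.0542) and Tsc1 (0.0742), and without Lck-cre replicate 6 Tsc1 (0.0702). Directions of these log2 changes were the same in every setting.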

How the data were processed

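RNA of 8 samples, 4 Lck-cre and 4 control, was sequenced, and the authors deposited 1 table per sample with FPKM, TPM and per-base coverage for each gene, per the file headers. HISAT and Bowtie2 are named in the submitters' processing notes, while their versions, the genome build, the annotation, the quantifier and strandedness are not stated in the labels or headers. FPKM was computed by the authors per length and library size, the deposited TPM values sum to 1000000 per sample, and the coverage signal in the deposited tables is not scaled by depth. Without counts, depth is unknown and no counting interval was made, and the planned count test was replaced by limma.

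Entries that share a gene ID were summed, and of genes with the same symbol the one with the highest mean stands for it. Genes that reached 1 FPKM in 4 or more samples were fitted as log2(FPKM + 0.5), which understates changes of low genes, with limma 3.58.1 in R 4.3.3 (terms for sex and genotype, trended empirical Bayes), two-sided, with Benjamini-Hochberg adjustment over the whole table and a threshold of 0.05. A gene could meet the minimum through 1 group alone. The fit was tested on simulated data in which genes varied independently and each gene had the same spread in both groups. That simulation does not cover genes that vary together, or spreads that differ between groups as those of Il4ra do. Single values were compared by exact permutation over 70 assignments. Ratios are of mean FPKM, errors are SDs, and Python 3.11.15, pandas 2.3.3 and NumPy 2.4.6 were used.

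Members and gene lists were chosen with earlier results of these data known. Named from each list were up to 2 called genes in each direction with the smallest adjusted p, or the 1 with the smallest p where none was called. Other genes of the lists (Il2ra, Crlf2, Il2rb, the cytokines, Stat3, Socs2, Bcl2, Bcl2l1, Mcl1, Ccnd2, Gata3, Irs2, Foxo1 and Gfi1) were named after their values were seen. Alternatives were other pseudocounts, filters, scalings, no sex term, males only, no trend and each sample left out. Marker lists of B cells, myeloid cells, stroma and erythroid cells were also read. Some marker genes are not reported here and are left out of the sums.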

Additional observations from a re-analysis of the deposited data

How the results depend on the processing

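Genes called numbered 3180 (1901 higher and 1279 lower in Lck-cre) and members called 3. With TPM values 1300 genes were higher and 2067 lower, and 6 members were called, with Stat5b (adjusted p = 0.0270), Socs1 and Socs3 added. With no filter 1056 genes and 0 members were called by limma (8 of 10 members and 24.0% of all genes at an unadjusted p under 0.05), and with males only 615 genes and 0 members (4 of 8 members and 31.8% of all genes at an unadjusted p under 0.05). With 1 sample left out, 636 to 3865 genes and 0 to 6 members were called: 0 without control replicate 1 or Lck-cre replicate 5, where the sex term absorbs the remaining female and the estimate is that of the males, and 6 without Lck-cre replicate 6. With no filter, adjusted p was 0.0791 for Il4ra, 0.0585 for Il21r and 0.0809 for Jak3. More genes are tested without the filter. TPM values are scaled to the same sum in every sample, whereas the sum of FPKM was higher in every Lck-cre sample than in every control. The median log2 change over all tested genes was 0.01 with FPKM and -0.06 with TPM values. For the other settings the cause was not tested. Pseudocounts of 0.1 and 1, a minimum on the mean, median-of-ratios scaling and no trend left 3 members called, and quantile normalization and no sex term 4. No paired analysis was possible because the groups share no replicate numbers. Unknown depth limits what can be said of Il7r and Cish, whose ratios of Lck-cre over control were 1.83 to 3.14 and 2.33 to 3.54 with 1 sample left out.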

Other observations

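Markers of other cells that the sort could hold were measured beside the pathway. B cell markers summed to 7.84 to 15.5 FPKM in Lck-cre and 12.4 to 16.9 FPKM in the controls, nearly all of it Cd79b, which had 11.9 ± 3.26 FPKM in Lck-cre and 14.3 ± 2.50 FPKM in the controls. Macrophage and dendritic cell markers summed to 63.5 to 72.2 FPKM in Lck-cre and 57.8 to 74.6 FPKM in the controls, mostly Cst3, and Cd68 was the 1 that rose of 2 tested. All of them but Cst3 had a higher mean in Lck-cre, and those other than Cst3 and Cd68 lay below the filter. Lyz2 had 0.560 ± 0.283 FPKM in Lck-cre and 0.164 ± 0.0214 FPKM in the controls. Siglech had 0.593 ± 0.352 FPKM in Lck-cre and 0.0552 ± 0.0247 FPKM in the controls. Csf1r had 0.0360 ± 0.0190 FPKM in Lck-cre and 0.00427 ± 0.00552 FPKM in the controls. The groups did not overlap for Lyz2, Siglech and Csf1r and overlapped for Itgax and Adgre1. Their part in the results on the members was not tested. Thymic epithelial and stromal markers summed to 3.94 to 5.28 FPKM in Lck-cre and 3.496 to 5.68 FPKM in the controls. Most of this was Epcam, at 4.20 ± 0.486 FPKM in Lck-cre and 4.30 ± 0.942 FPKM in the controls. Krt8 had 0.200 ± 0.0437 FPKM in Lck-cre and 0.0642 ± 0.0316 FPKM in the controls, Psmb11 0.128 ± 0.0554 FPKM in Lck-cre and 0.0508 ± 0.0206 FPKM in the controls, and Foxn1 0.0426 ± 0.0210 FPKM in Lck-cre and 0.00985 ± 0.00981 FPKM in the controls, all below the filter. The groups did not overlap for Krt8 and overlapped for Psmb11 and Foxn1, and the part of these cells in the results on the members was not tested. Pdgfra was listed at 0 in all samples. Erythroid markers summed to at most 0.263 FPKM in Lck-cre and 0.123 FPKM in the controls.

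Besides Ccnd2, the pathway genes below the filter whose groups did not overlap were Gab2, Irs1 and Tslp. Gab2, an adaptor of cytokine receptors, had 0.196 ± 0.0319 FPKM in Lck-cre and 0.104 ± 0.0169 FPKM in the controls, and Irs1 had 0.0586 ± 0.00502 FPKM in Lck-cre and 0.0329 ± 0.0110 FPKM in the controls. Tslp, the cytokine that signals through Il7r and Crlf2, was lower, with 0.183 ± 0.0489 FPKM in Lck-cre and 0.286 ± 0.0391 FPKM in the controls. They were named after their values were seen and were not fitted. Groups also did not overlap in 29.4% of all tested genes, and the share among genes below the filter was not computed.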
